A study of Saccharomyces cerevisiae with 25 samples.

Results

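The genes described here encode the subunits of the CCR4-NOT complex other than the ubiquitin ligase Not4. They were chosen by name, 8 of the 6696 ORFs counted in budding yeast (Saccharomyces cerevisiae): CDC39 (also NOT1, YCR093W), CDC36 (also NOT2, YDL165W), NOT3 (YIL038C), NOT5 (YPR072W), CCR4 (YAL021C), POP2 (also CAF1, YNR052C), CAF40 (YNL288W) and CAF130 (YGR134W). The study treated cultures with tunicamycin (Tm), a drug that blocks N-glycosylation and so unfolds proteins in the endoplasmic reticulum, at 1 µg/mL, and measured ribosome footprints (ribosome profiling, 13 libraries) and mRNA (RNA-seq, 12 libraries). W303-1a (MATa ade2 his3 leu2 trp1 ura3 can1) was sampled at 0, 1, 2 and 4 h. In the same background, eS7-WT and eS7-4KR lacked both chromosomal genes for the ribosomal protein eS7 (RPS7a::HisMX6 RPS7b::natNT2), lived on HA-tagged eS7A from a low-copy (CEN) plasmid (pRS315-RPS7a-3HA or pRS315-RPS7a-4KR-3HA), and were sampled at 0 and 4 h. In eS7-4KR the lysines of eS7 that can be ubiquitinated were changed to arginine. Each group had 2 libraries per assay, except W303-1a at 1, 2 and 4 h and the eS7-WT mRNA at 0 h with 1 each. The study's text describes replicates as biological and independent.

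CCR4-NOT is the main cytoplasmic deadenylase of eukaryotes. It shortens the poly(A) tail of mRNAs, which opens the way to decapping and decay, and it also acts in transcription and in monitoring slow ribosomes. Cdc39 is the scaffold on which the other subunits assemble. Cdc36, Not3 and Not5 form the NOT module, of which Not5 can contact the ribosome. Ccr4 and Pop2 are the nucleases. Caf40 is a conserved surface for RNA-binding partners, and Caf130 is a peripheral subunit found in yeasts. Not4, a further subunit, ubiquitinates eS7.

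Total counts ran from 3423907 to 33858553 in the footprint libraries and from 28309641 to 49246452 in the mRNA libraries. The lowest count of a member in any library was 113 footprints and 640 mRNA reads. The strain labels were checked by RPS7B, whose mRNA was 1.13 to 9.08 counts per 1000000 (CPM) in the groups that lack the gene and 16.9 to 342 in the W303-1a groups. RPS7B footprints in those strains were 43.1 to 491 CPM. How many of these belong to the near-identical RPS7A was not tested. Treatment was checked by KAR2, PDI1, ERO1 and LHS1, targets of the unfolded protein response, and all 4 rose in both assays in each of the 5 comparisons with 0 h. Every level is a share of its library's reads, so less RNA of a gene per cell and more of other RNA cannot be told apart. Changes here are relative to the typical gene (TMM scaling, which keeps the median change of all genes near 0). Library totals in place of TMM moved that median by up to 0.95 on the log2 scale, and 11 of the 41 changes called below then took the opposite sign. Those 11 are marked where they are first given, and only 4 of the 41 kept both their sign and their call.

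Of the 8 genes, 7 had similar footprint levels in untreated W303-1a and CAF130 had far fewer, as the plot of levels in every library shows. Levels are given per length, as CPM per 1000 codons. In W303-1a at 0 h the footprint levels were 175.6 ± 7.35 for POP2, 164.5 ± 19.3 for CDC36, 158.4 ± 4.62 for NOT5, 151.1 ± 8.91 for CAF40, 147.1 ± 2.98 for CDC39, 145.3 ± 8.75 for CCR4, 119.3 ± 1.53 for NOT3 and 21.5 ± 4.18 for CAF130 (mean ± SD, n = 2). Levels of different genes are compared per length only. Only NOT3 and CAF130 lay below the others in both libraries, and each neighbouring pair among the 6 genes from POP2 to CCR4 overlapped between replicates. The highest member exceeded the second lowest by 1.44-fold and 1.5-fold in the 2 libraries, and CAF130 by 6.97-fold and 9.75-fold. CAF130 was the lowest member in all 25 libraries, at 0.128 to 0.222 of the median member in footprints and 0.206 to 0.348 in mRNA. Over all libraries CAF130 stood between percentiles 13.8 and 21.5 of the ORFs tested by footprints per codon, and the other 7 members between percentiles 44.2 and 76.7.

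**Figure D1:**
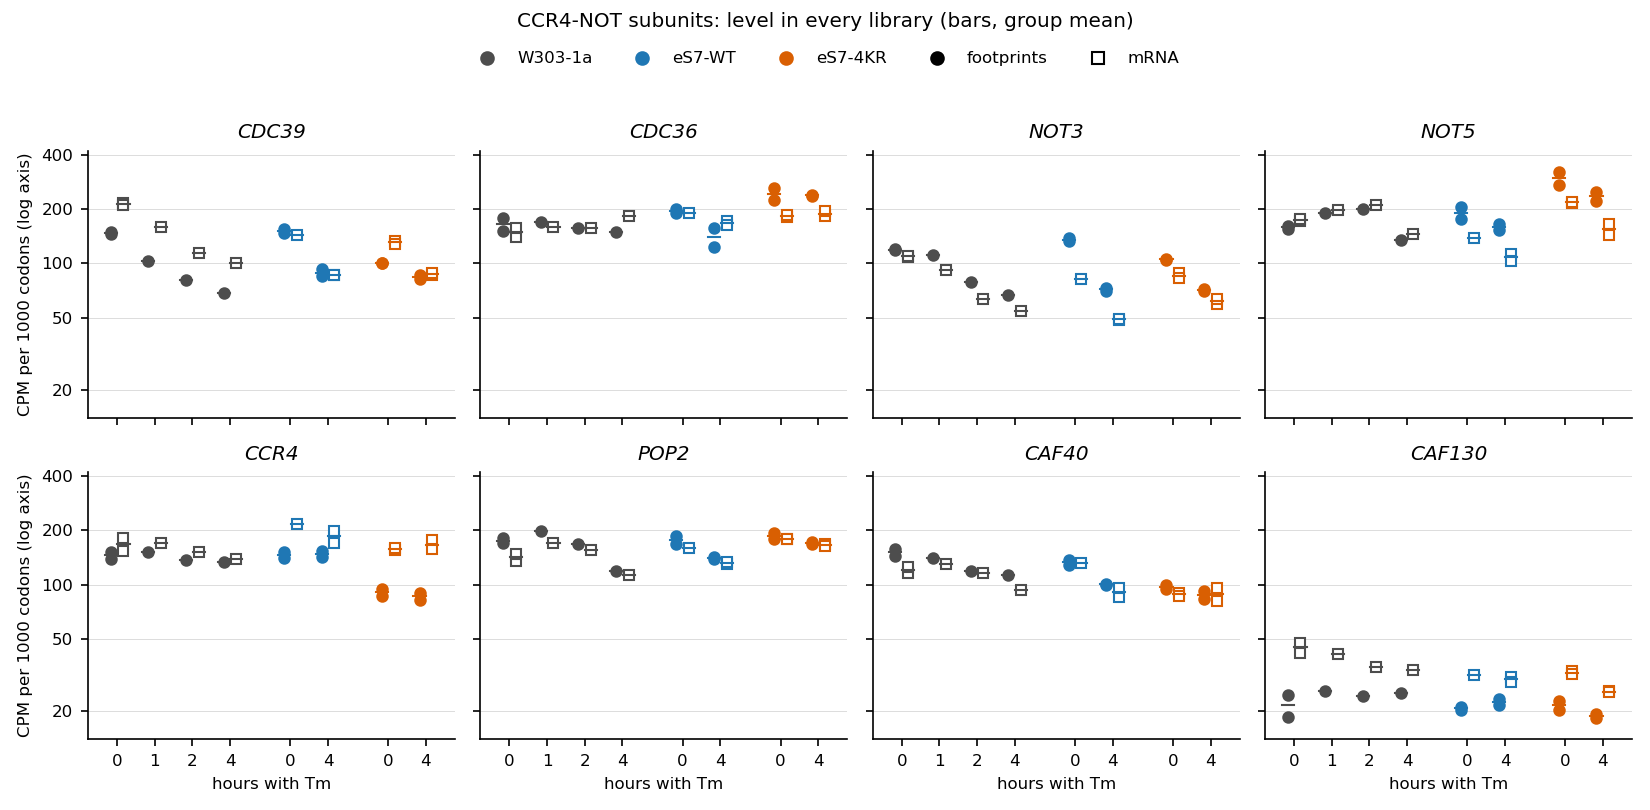
Level of each CCR4-NOT gene in every library, in CPM per 1000 codons on a log axis, by strain and hours with Tm. Filled circles are footprint libraries, open squares mRNA libraries and bars group means. CAF130 lay below the other 7 genes in all 25 libraries, and CDC39 and NOT3 declined over the W303-1a time course.

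The mRNA order was different. In W303-1a at 0 h CDC39 had the highest mRNA level, 216.2 and 211.5 CPM per 1000 codons, above NOT5 at 172.0 and 175.1. Among footprints CDC39 was only the fifth of the 8. Its ratio of footprint level to mRNA level, the translation efficiency (TE), was 0.688 (0.671 to 0.706 over the 4 pairings of libraries), against a median of 0.957 for all ORFs tested. CAF130 had the lowest TE of the 8, 0.478 (0.388 to 0.580), and CAF40 (1.25) and POP2 (1.24) the highest. NOT3 mRNA was 108.8 and 110.5, the seventh of the 8, and it kept that place in each of the 8 mRNA groups.

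With Tm, 25 of the 80 tests of an mRNA or footprint change against 0 h passed the threshold (adjusted p below 0.01, edgeR quasi-likelihood test with Benjamini-Hochberg adjustment), and all 25 were decreases. Under library totals 21 tests passed, of which 20 were increases and 1 a decrease (CDC39 mRNA at 2 h in W303-1a). The decreases are therefore relative to other genes. In W303-1a mRNA, CDC39 alone was called at 1 h, 2 of the 8 at 2 h and 4 of the 8 at 4 h. Of all ORFs tested, 36.8%, 69.7% and 73.6% were called in either direction and 18.5%, 33.8% and 36% as decreases. In W303-1a footprints the counts were 1, 2 and 3 of the 8, against 28.2%, 60.5% and 64.6% of all ORFs in either direction and 16.5%, 30.7% and 32.6% as decreases. In eS7-WT at 4 h, 3 of the 8 were called in mRNA (59.7% of all ORFs in either direction, 29.1% as decreases) and 5 of the 8 in footprints (69.5% and 34.9%). In eS7-4KR at 4 h, 3 of the 8 were called in mRNA (30.9% and 13.5%) and 1 of the 8 in footprints (38% and 19.8%). The median change of the 8 members at 4 h was -0.32 in mRNA and -0.32 in footprints in W303-1a, -0.31 and -0.40 in eS7-WT, and -0.18 and -0.19 in eS7-4KR, where the median of all ORFs lay between -0.03 and 0.04. Under library totals these medians were above 0 in W303-1a (0.39 and 0.63) and eS7-WT (0.31 and 0.43) and below 0 in eS7-4KR (-0.01 and -0.05).

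**Figure D2:**
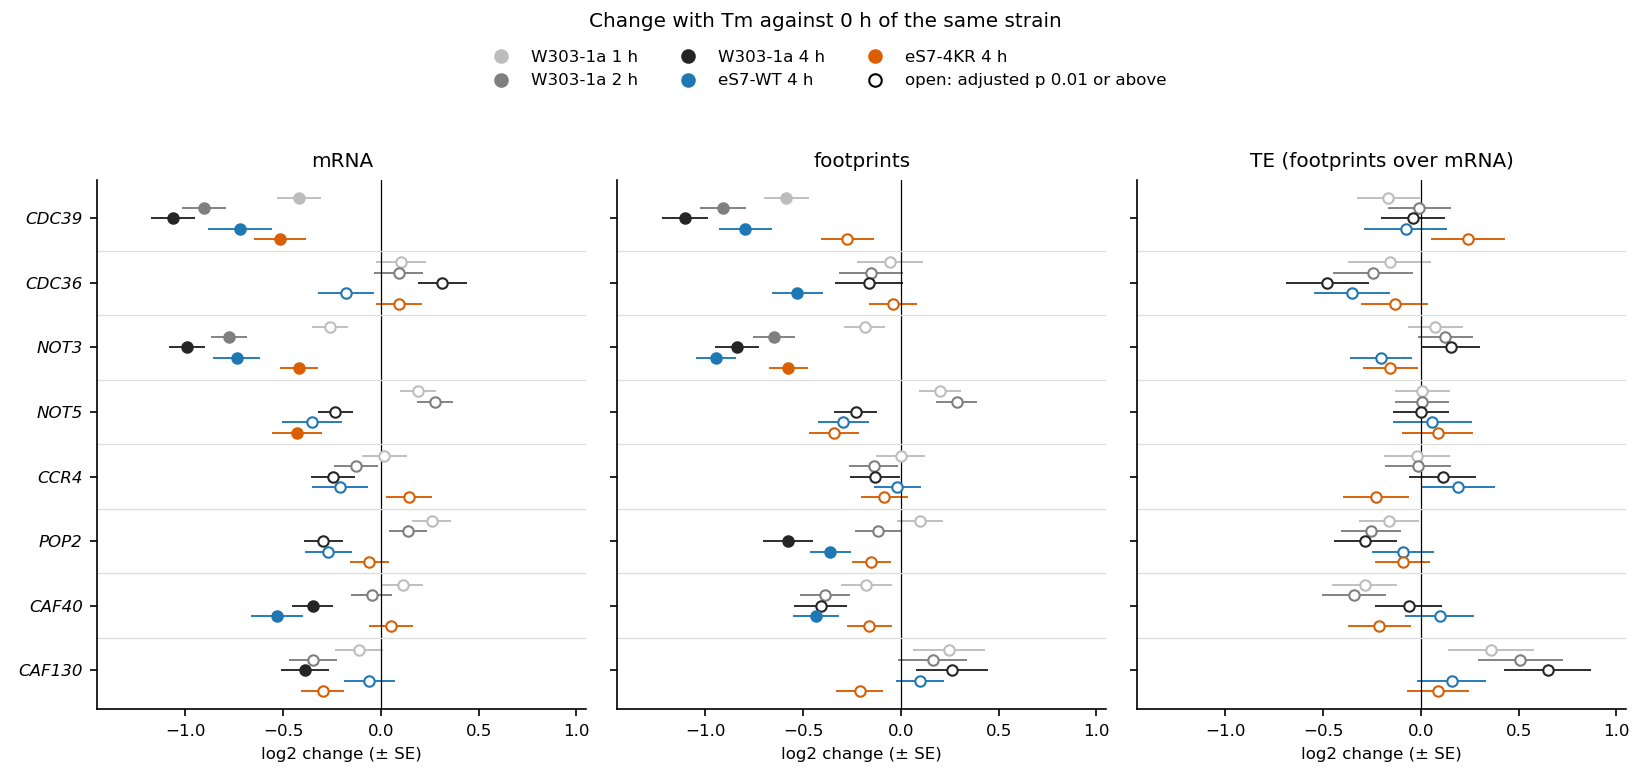
Change of each gene with Tm against 0 h of the same strain, as log2 change ± SE, for mRNA, footprints and TE (left to right). Filled points passed an adjusted p of 0.01. The filled points are all to the left of 0, CDC39 and NOT3 carry most of them, and no TE point is filled.

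CDC39, the scaffold (chromosome III, 280117 to 286443, R64), was called in all 8 tests of its mRNA and footprint changes with Tm in W303-1a and eS7-WT, and in eS7-4KR mRNA. Its mRNA level in W303-1a was 216.2 and 211.5 at 0 h, 160.1 at 1 h, 113.8 at 2 h, then 101.0 at 4 h (CPM per 1000 codons). Its footprint level was 149.2 and 145.0 at 0 h, then 103.3, 81.3 and 68.8. Both assays declined at each later time. The mRNA fell by 0.42 at 1 h (SE 0.11, adjusted p 0.0062), by 0.90 at 2 h (SE 0.11, adjusted p 2.78e-06) and by 1.06 at 4 h (SE 0.11, adjusted p 3.93e-07), all on the log2 scale. The footprints fell by 0.59 (SE 0.12, adjusted p 0.00103), 0.91 (SE 0.12, adjusted p 5.11e-06) and 1.10 (SE 0.12, adjusted p 6.02e-07). Relative to the typical gene, that left 47.9% of the starting mRNA and 46.5% of the starting footprints at 4 h. Under library totals the mRNA changes were -0.35, -0.44 and -0.35 (adjusted p 0.0275, 0.00226 and 0.014) and the footprint changes -0.42, -0.34 and -0.15 (adjusted p 0.011, 0.0239 and 0.324). The 1 h calls were lost without either untreated footprint library, with adjusted p 0.0229 and 0.0241 for mRNA at -0.42, and 0.0146 and 0.0122 for footprints at -0.57 and -0.61. The 1 h mRNA call was also lost with no filter (-0.40, adjusted p 0.0187) and with DESeq2 (-0.46, adjusted p 0.0232), and both 1 h calls in a fit of all 25 libraries (-0.42 and -0.51, adjusted p 0.0244 and 0.0107).

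In eS7-WT the CDC39 mRNA level was 143.0 at 0 h and 85.8 and 86.4 at 4 h. Its footprint level went from 147.4 and 155.4 to 92.9 and 85.1. The groups did not overlap in either assay. The mRNA fell by 0.72 (SE 0.16, adjusted p 0.000344, and -0.10 with adjusted p 0.634 under library totals) and the footprints by 0.80 (SE 0.14, adjusted p 1.07e-05, with the opposite sign, 0.04, under library totals). In eS7-4KR the mRNA level went from 133.2 and 128.0 to 86.5 and 89.0 and fell by 0.52 (SE 0.13, adjusted p 0.00333, and -0.35 with adjusted p 0.0727 under library totals). That call was lost without any of the 4 eS7-4KR mRNA libraries (-0.49 to -0.55, adjusted p 0.0231 to 0.0447). Footprints in eS7-4KR were already at 101.1 and 100.8 at 0 h and were 81.8 and 86.8 at 4 h. This change of -0.275 did not pass the threshold with edgeR (adjusted p 0.096) and passed with DESeq2 (adjusted p 0.00467).

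NOT3 (chromosome IX, 280142 to 282652), a NOT-module subunit, also declined over the W303-1a course. In W303-1a its mRNA level was 108.8 and 110.5 at 0 h, 91.8 at 1 h, 63.8 at 2 h, then 54.4 at 4 h. Its footprint level was 118.2 and 120.4, then 110.7, 79.1 and 67.2. The mRNA fell by 0.78 at 2 h (SE 0.09, adjusted p 1.47e-06) and 0.99 at 4 h (SE 0.09, adjusted p 7.71e-08). The footprints fell by 0.65 (SE 0.11, adjusted p 6.15e-05) and 0.84 (SE 0.11, adjusted p 6.16e-06, with the opposite sign, 0.12, under library totals at 4 h). Under library totals the 2 h change was -0.08 in footprints (adjusted p 0.621), and the mRNA changes were -0.31 and -0.28 (adjusted p 0.0234 and 0.0425). CDC39 footprints in eS7-4KR passed with DESeq2 and not in the main edgeR fit. In that main fit NOT3 was the one member called in both assays in all 3 strains at 4 h. In eS7-WT its footprint level went from 133.0 and 138.4 to 73.4 and 70.5, a fall of 0.94 (SE 0.10, adjusted p 8.39e-09), and its mRNA from 82.4 to 48.7 and 49.3, a fall of 0.74 (SE 0.12, adjusted p 5.19e-06). In eS7-4KR the footprints went from 104.7 and 106.1 to 72.4 and 70.6 and fell by 0.58 (SE 0.10, adjusted p 5.63e-05). The eS7-4KR mRNA went from 88.1 and 83.5 to 59.5 and 63.8 and fell by 0.42 (SE 0.10, adjusted p 0.00143). Under library totals the footprint and mRNA changes were -0.11 and -0.11 in eS7-WT (adjusted p 0.568 and 0.656) and -0.43 and -0.26 in eS7-4KR (adjusted p 0.0848 and 0.335). The mRNA call in eS7-4KR was lost without either 0 h library or without replicate 1 at 4 h (-0.37 to -0.46, adjusted p 0.0108 to 0.0314).

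NOT5 (chromosome XVI, 690107 to 691789) is the other large NOT-module protein and a paralog of NOT3. Its W303-1a footprint level was 161.7 and 155.1 at 0 h, 191.3 at 1 h, 199.98 at 2 h, then 135.4 at 4 h, and its mRNA followed (172.0 and 175.1, then 198.5, 209.4 and 145.6). The 1 and 2 h values were above both 0 h libraries and the 4 h values below. None of the 6 changes passed the threshold with TMM scaling. Under library totals NOT5 was called higher in W303-1a at 2 h (0.74 in mRNA and 0.85 in footprints). It was also called higher there at 4 h (0.48 and 0.72), and in eS7-WT footprints (0.54). NOT3 over NOT5, both from the same library and so free of scaling between libraries, went from 0.731 and 0.776 at 0 h to 0.395 at 2 h in W303-1a footprints. NOT5 mRNA in eS7-4KR went from 216.0 and 219.2 to 144.4 and 166.2 and fell by 0.43 (SE 0.13, adjusted p 0.00832, and -0.27 with adjusted p 0.141 under library totals). With TMM scaling this was the single call of NOT5 with Tm. It was lost without any of the 4 eS7-4KR mRNA libraries or either eS7-WT 4 h mRNA library (-0.33 to -0.54, adjusted p 0.0116 to 0.121).

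CDC36 (chromosome IV, 164290 to 164865), the shortest of the 8 proteins, pairs with Not5 or Not3. With TMM scaling CDC36 was called with Tm only in eS7-WT footprints. These went from 190.1 and 200.3 to 122.9 and 156.1, a fall of 0.53 (SE 0.13, adjusted p 0.000804, 0.29 with the opposite sign under library totals). Without the 4 h footprint replicate 1 the value was -0.32 and the adjusted p 0.0654. In W303-1a its mRNA level was 140.3 and 157.4 at 0 h and 182.5 at 4 h, where it was the highest of the 8, and its footprint level was 150.8 and 178.2 at 0 h and 150.1 at 4 h. Under library totals CDC36 was called higher in W303-1a mRNA at 2 h (0.56) and 4 h (1.03) and in footprints at 4 h (0.795).

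Of the nucleases, CCR4 (chromosome I, 110846 to 113359) was not called with TMM scaling in any comparison of Tm with 0 h. Under library totals CCR4 was called higher in W303-1a mRNA at 4 h (0.47). The same held for its footprints in W303-1a at 2 h (0.43) and 4 h (0.82) and in eS7-WT (0.81). Its footprint level in W303-1a was 151.5 and 139.1 at 0 h, 152.5 at 1 h, 136.5 at 2 h, then 132.8 at 4 h. In eS7-WT it was 140.8 and 152.2 at 0 h and 142.8 and 153.1 at 4 h, and these groups overlapped. The 10 log2 changes of CCR4 mRNA and footprints with TMM scaling lay between -0.24 and 0.14. POP2 (chromosome XIV, 719346 to 720647) had fewer footprints at 4 h in both strains with unmutated eS7. In W303-1a its footprint level was 170.4 and 180.8 at 0 h, 199.1 at 1 h, 168.8 at 2 h, then 118.7 at 4 h, a fall of 0.58 at 4 h (SE 0.13, adjusted p 0.000672, 0.38 with the opposite sign under library totals, adjusted p 0.0182 with DESeq2). In eS7-WT it went from 167.1 and 187.2 to 143.1 and 138.0, a fall of 0.36 (SE 0.10, adjusted p 0.00298, 0.47 with the opposite sign under library totals). The eS7-WT call was lost without 0 h footprint replicate 2 (-0.27, adjusted p 0.0483) or without 4 h footprint replicate 1 (-0.36, adjusted p 0.0132) or 2 (-0.31, adjusted p 0.0241).

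CAF40 (chromosome XIV, 90303 to 91424) was called in W303-1a mRNA at 4 h and in both assays in eS7-WT. Its W303-1a mRNA level was 116.3 and 125.1 at 0 h and 93.5 at 4 h, a fall of 0.35 (SE 0.10, adjusted p 0.00648, 0.37 with the opposite sign under library totals, adjusted p 0.129 with DESeq2). In eS7-WT the mRNA went from 132.5 to 85.8 and 96.0 and fell by 0.53 (SE 0.13, adjusted p 0.000856), and the footprints went from 136.4 and 129.2 to 100.8 and 99.9 and fell by 0.43 (SE 0.12, adjusted p 0.00171). Both eS7-WT changes had the opposite sign under library totals (0.09 and 0.38). The mRNA call was lost without 4 h mRNA replicate 1 (-0.47, adjusted p 0.0136). The footprint call was lost without 0 h footprint replicate 1 (-0.41, adjusted p 0.0112) or 4 h replicate 1 (-0.41, adjusted p 0.0186) or 2 (-0.40, adjusted p 0.0161). CAF130 (chromosome VII, 757770 to 761138) had an mRNA level of 47.8 and 42.2 at 0 h and 33.9 at 4 h in W303-1a, a fall of 0.39 (SE 0.12, adjusted p 0.00876, 0.32 with the opposite sign under library totals, adjusted p 0.123 with DESeq2, and -0.31 with adjusted p 0.0116 without 0 h mRNA replicate 1). Its footprint level was 24.4 and 18.5 at 0 h and 25.03 at 4 h, so the 4 h library lay above both, without passing the threshold. Under library totals CAF130 footprints were called higher in W303-1a at 2 h (0.72) and 4 h (1.21) and in eS7-WT (0.92).

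Between the eS7 strains the members moved in both directions. At 0 h, 3 of the 8 differed in mRNA (42.2% of all ORFs tested) and 5 of the 8 in footprints (53%). At 4 h, 1 of the 8 differed in mRNA (49.7%) and 3 of the 8 in footprints (54.4%). The comparison asks how cells whose eS7 cannot be ubiquitinated differ from cells with unmutated eS7. Relative to the typical gene, NOT5 was higher in eS7-4KR in both assays and at both times, CCR4 footprints were lower at both times, and the other differences appeared at 1 of the 2 times. The read lengths kept for footprints differed in the study's methods between eS7-WT and eS7-4KR, and in eS7-WT also between 0 and 4 h. In the footprint differences between the strains and in the eS7-WT footprint changes with Tm, the part of this cannot be told apart from that of the strain or of Tm.

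**Figure D3:**
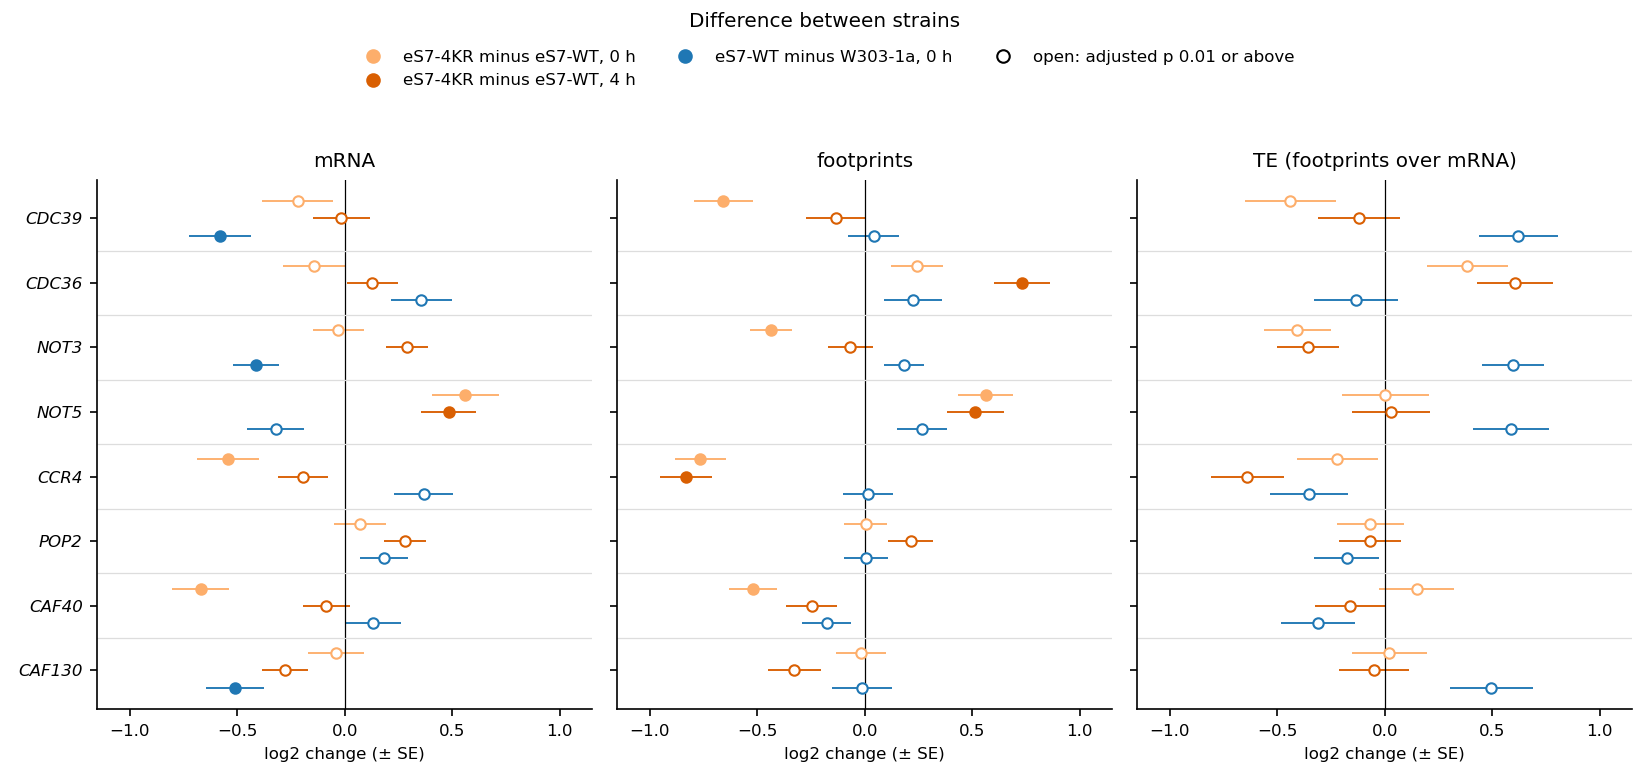
Difference between strains for each gene, as log2 change ± SE, for mRNA, footprints and TE (left to right). Filled points passed an adjusted p of 0.01. NOT5 mRNA and footprints lay to the right and CCR4 footprints to the left in eS7-4KR against eS7-WT at both times. No footprint point was filled for eS7-WT against W303-1a.

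NOT5 footprints were 271.2 and 319.3 CPM per 1000 codons in eS7-4KR at 0 h, against 176.0 and 205.1 in eS7-WT, and 221.2 and 249.8 at 4 h, against 152.9 and 164.7. The strains did not overlap at either time. The differences were 0.56 at 0 h (SE 0.13, adjusted p 0.000481) and 0.52 at 4 h (SE 0.13, adjusted p 0.00135). NOT5 mRNA was 216.0 and 219.2 against 138.9 at 0 h, a difference of 0.56 (SE 0.16, adjusted p 0.00457), and 144.4 and 166.2 against 112.8 and 103.1 at 4 h, a difference of 0.48 (SE 0.13, adjusted p 0.00207). Its TE differences between the strains were 0.00 and 0.03. Under library totals the footprint differences were 1.14 and 0.41 (adjusted p 7.63e-07 and 0.0133), and the mRNA differences 0.57 and 0.03 (adjusted p 0.00975 and 0.84). Each NOT5 call was lost with 1 library left out. In footprints these were eS7-WT 0 h replicate 1 (0.44, adjusted p 0.0139), eS7-4KR 0 h replicate 2 (0.41, adjusted p 0.0155) and eS7-4KR 4 h replicate 2 (0.42, adjusted p 0.0228). In mRNA they were either eS7-4KR 0 h library (0.57 and 0.55, adjusted p 0.0185 and 0.0228), eS7-WT 4 h replicate 2 (0.41, adjusted p 0.0447) and eS7-4KR 4 h replicate 2 (0.37, adjusted p 0.0526).

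CCR4 footprints were 95.1 and 86.3 in eS7-4KR at 0 h, against 140.8 and 152.2 in eS7-WT, and 90.3 and 82.7 at 4 h, against 142.8 and 153.1. The differences were -0.76 (SE 0.12, adjusted p 6.26e-06) and -0.83 (SE 0.12, adjusted p 2.23e-06), which are 58.9% and 56.2% of the eS7-WT level relative to the typical gene. Under library totals they were -0.17 at 0 h (adjusted p 0.401) and -0.92 at 4 h (adjusted p 0.000205). The CCR4 mRNA level was 155.4 and 158.7 against 215.4 at 0 h, a difference of -0.54 (SE 0.14, adjusted p 0.00235, and 0.0466 under library totals), which was lost without either eS7-4KR 0 h mRNA library (-0.53 and -0.56, adjusted p 0.0223 and 0.0154). At 4 h the mRNA was 175.9 and 157.6 against 170.9 and 199.0, and these groups overlapped. POP2, the other nuclease, did not pass the threshold between the eS7 strains in either assay in the main edgeR fit. Its mRNA difference at 4 h was 0.28 (adjusted p 0.0163). That difference passed with DESeq2 (adjusted p 0.00611) and with edgeR's newer quasi-likelihood mode (adjusted p 0.00597). Under library totals POP2 footprints passed at 0 h (0.60, adjusted p 0.0076). Its footprint level was 193.1 and 180.0 in eS7-4KR at 0 h, against 167.1 and 187.2 in eS7-WT.

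CDC36 footprints were 225.2 and 260.5 in eS7-4KR at 0 h, against 190.1 and 200.3 in eS7-WT, and 236.8 and 239.5 at 4 h, against 122.9 and 156.1. The strains did not overlap at either time. The difference passed the threshold at 4 h, at 0.73 (SE 0.13, adjusted p 3.22e-05, and 0.64 with adjusted p 0.0128 under library totals), and was 0.24 at 0 h (SE 0.12). CDC36 mRNA at 4 h was 182.3 and 194.0 in eS7-4KR and 171.9 and 162.6 in eS7-WT. CDC39 footprints at 0 h were lower in eS7-4KR (101.1 and 100.8 against 147.4 and 155.4), by 0.66 (SE 0.14, adjusted p 0.000177, and -0.07 with adjusted p 0.673 under library totals). NOT3 footprints at 0 h were 104.7 and 106.1 against 133.0 and 138.4, a difference of -0.43 (SE 0.10, adjusted p 0.000509, 0.14 with the opposite sign under library totals, and -0.36 with adjusted p 0.0145 without eS7-4KR 0 h footprint replicate 1). CAF40 at 0 h was lower in both assays. Its mRNA was 90.1 and 87.0 against 132.5, a difference of -0.67 (SE 0.13, adjusted p 0.000159, and 0.0643 under library totals), and its footprints were 97.4 ± 3.65 (SD, n = 2) against 136.4 and 129.2, a difference of -0.52 (SE 0.11, adjusted p 0.000318, 0.06 with the opposite sign under library totals). At 4 h CDC39, NOT3 and CAF40 did not pass the threshold between the strains in either assay in the main edgeR fit. NOT3 mRNA was then 0.29 higher in eS7-4KR (adjusted p 0.0141), and it passed with DESeq2 (adjusted p 0.00381). Under library totals CDC39 mRNA at 4 h was called lower in eS7-4KR (-0.46, adjusted p 0.00965).

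Ratios of 2 subunits within a library restate the differences between the strains from the same libraries, free of scaling between libraries. These ratios were picked after the values were seen, so they are no separate support, and are given without a test. In the footprint ratios the part of the read lengths kept cannot be told apart from that of the strain. NOT5 over CCR4 in footprints, per codon, was 2.45 to 3.70 in the 4 eS7-4KR libraries and 1.02 to 1.46 in the 9 others. CDC36 over CCR4 was 2.37 to 3.02 in eS7-4KR and 0.861 to 1.35 in the 9 others. No eS7-4KR footprint library overlapped with any other in either ratio. In mRNA the strains lay closer. NOT5 over CCR4 was 0.821 to 1.39 in eS7-4KR, 0.518 to 0.660 in eS7-WT and 0.966 to 1.38 in W303-1a, so the eS7-4KR mRNA ratios overlapped those of W303-1a. The highest member exceeded the second lowest by 2.85-fold to 3.70-fold in the 4 eS7-4KR footprint libraries and by 1.43-fold to 2.53-fold in the others.

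**Figure D4:**
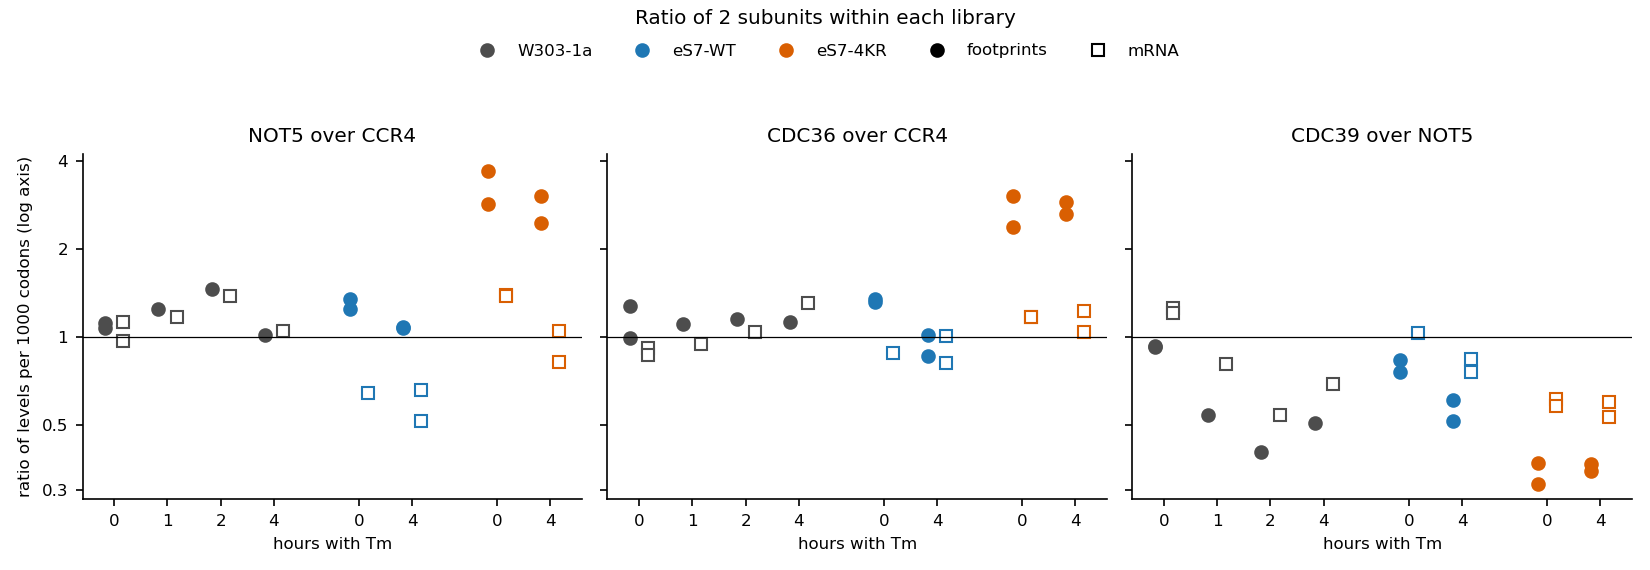
Ratio of the levels per codon of 2 CCR4-NOT genes within each library, on a log axis, by strain and hours with Tm. Filled circles are footprint libraries and open squares mRNA libraries. The 4 eS7-4KR footprint libraries lie at 2.45 to 3.70 for NOT5 over CCR4 and at 2.37 to 3.02 for CDC36 over CCR4, above all 9 others, and at 0.316 to 0.373 for CDC39 over NOT5, below all 9 others.

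The change with Tm itself was compared between the eS7 strains. In mRNA 1 of the 8 members differed (34.8% of all ORFs tested) and in footprints none of the 8 (43.9%), where 3 had an unadjusted p below 0.05 with edgeR and DESeq2 called 2. Those 3 were CDC39 (0.52, adjusted p 0.024, and 2.88e-05 with DESeq2), CDC36 (0.49, adjusted p 0.0238) and NOT3 (0.37, adjusted p 0.0331, and 0.00822 with DESeq2). All 3 passed with edgeR when the replicate number was added to the model separately within each assay (adjusted p 7.92e-05, 0.00418 and 0.0088). Under library totals NOT5 footprints passed, at -0.73 (adjusted p 0.00273). The member that passed in mRNA was CAF40, whose mRNA went from 132.5 to 85.8 and 96.0 in eS7-WT and from 90.1 and 87.0 to 95.4 and 81.3 in eS7-4KR. The difference of the changes was 0.58 (SE 0.17, adjusted p 0.007), and 0.13 (adjusted p 0.789) under library totals. It was lost without eS7-WT 4 h mRNA replicate 1 (0.52, adjusted p 0.0432), either eS7-4KR 0 h mRNA library (0.61 and 0.56, adjusted p 0.0214 and 0.0337) or eS7-4KR 4 h mRNA replicate 1 (0.48, adjusted p 0.0403), and the 0 h value of eS7-WT rests on 1 library.

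Before treatment, eS7-WT and W303-1a, which differ in the source and tag of eS7, were compared as untreated strains with unmutated eS7. None of the 8 members passed the threshold in footprints (8.36% of all ORFs tested), 1 had an unadjusted p below 0.05 with edgeR, and DESeq2 called none. The footprint differences lay between -0.18 and 0.27. In mRNA 3 of the 8 were lower in eS7-WT (13.6% of all ORFs differed, 7.46% being lower). CDC39 mRNA was 143.0 in eS7-WT against 216.2 and 211.5, a difference of -0.58 (SE 0.14, adjusted p 0.00475). NOT3 mRNA was 82.4 against 108.8 and 110.5, a difference of -0.41 (SE 0.11, adjusted p 0.00714), and CAF130 mRNA was 31.6 against 47.8 and 42.2, a difference of -0.51 (SE 0.14, adjusted p 0.00802). The eS7-WT value is 1 library. All 3 calls were lost with RLE factors, with library totals, with no filter and with the 0 h libraries alone. They were also lost without W303-1a 0 h mRNA replicate 1 (-0.53, -0.39 and -0.38, adjusted p 0.0383, 0.0437 and 0.115) and without either eS7-4KR 0 h mRNA library (-0.58, -0.41 and -0.51, adjusted p 0.0104 to 0.0147), and the CDC39 and NOT3 calls without W303-1a 0 h mRNA replicate 2 (-0.60 and -0.40, adjusted p 0.015 and 0.0283) or either W303-1a 0 h footprint library (-0.58 and -0.41, adjusted p 0.013 to 0.0139). The NOT3 and CAF130 calls were lost without either eS7-WT 4 h mRNA library (-0.41 and -0.51, adjusted p 0.0125 to 0.0137), and the CAF130 call without either eS7-4KR 4 h mRNA library (-0.51, adjusted p 0.0104).

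No TE change of a member passed the threshold in any of the 72 tests (8 members in 9 comparisons). Of all ORFs tested, the share called was 0.0927%, 2.32% and 3.95% in W303-1a at 1, 2 and 4 h, 4.41% in eS7-WT and 0.9% in eS7-4KR with Tm, 2.41% at 0 h and 4.62% at 4 h between the eS7 strains, 0.63% for the difference of their Tm changes, and 1.21% between eS7-WT and W303-1a. With edgeR 11 of the 72 had an unadjusted p below 0.05, its newer quasi-likelihood mode called 0 and DESeq2 called 3. The standard errors of these log2 differences ran from 0.14 to 0.29. CCR4 had a TE of 0.519 in eS7-4KR at 4 h (0.470 to 0.573 over 4 pairings) and 0.800 in eS7-WT (0.718 to 0.896), a difference of -0.64 (adjusted p 0.0159, 0.00345 with DESeq2, and -0.28 with adjusted p 0.447 under library totals). CDC36 had a TE of 1.27 (1.22 to 1.31) against 0.834 (0.715 to 0.960), a difference of 0.60 (adjusted p 0.0275). The ranges of the pairings did not overlap for either gene. Between eS7-WT and W303-1a at 0 h, NOT3 had a TE of 1.65 against 1.09 (difference 0.60, adjusted p 0.0181, and 0.00729 with DESeq2), and CDC39 had 1.06 against 0.688 (difference 0.62, adjusted p 0.0611, and 0.000794 with DESeq2). Under library totals these 2 differences were 0.415 and 0.439 (adjusted p 0.635 and 0.44), and the eS7-WT mRNA at 0 h is 1 library. For CAF130 in W303-1a, TE was 0.478 at 0 h and 0.624, 0.687 and 0.739 at 1, 2 and 4 h. The difference at 4 h was 0.65 (adjusted p 0.081, and 0.885 with adjusted p 0.00582 under library totals).

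Across libraries the members did not vary as 1 block. Over the 13 footprint libraries, the log2 levels of CDC39 and NOT3 had a Pearson correlation of 0.917 and those of CDC36 and NOT5 of 0.859, while CCR4 had -0.825 with CDC36 and -0.800 with NOT5. Over the 12 mRNA libraries, CDC39 and NOT3 had 0.943. CDC39 and CAF130 had 0.874 in mRNA, and CDC36 and CAF130 had -0.804. These values describe libraries that share strain and time, and no test was made. The ORFs most like CDC39 were YDL241W, YBR238C and NUP100, a nuclear pore subunit, in footprints (r = 0.970 for each) and GEA1, TOM1 and UBP12 in mRNA (0.991, 0.991 and 0.987). Those most like the mean of the 8 members were CCT8, a chaperonin subunit, NAT1, an N-terminal acetyltransferase subunit, and ALE2 in footprints (0.980, 0.980 and 0.978) and TOM22, CLU1 and CSE1 in mRNA (0.991, 0.990 and 0.989). With Spearman's correlation 1, 0, 0 and 1 of these sets of 3 were shared, respectively for CDC39 footprints, mean footprints, CDC39 mRNA and mean mRNA.

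The other genes of the deadenylation and decay pathway were described from 3 lists. Among 18 genes of decapping and 5'-to-3' decay, mRNA of 4 rose and of 6 fell in W303-1a at 4 h, of 3 rose and 8 fell in eS7-WT, and of 3 rose and 1 fell in eS7-4KR. The genes that rose most were DCS2, a regulator related to the scavenger enzyme Dcs1 (4.59 in W303-1a, 3.49 in eS7-WT and 0.95 in eS7-4KR), EDC2, a decapping activator (2.67, 2.35 and 1.14), and DCS1 (2.56 in W303-1a and 1.57 in eS7-WT). LSM1, a subunit of the ring that activates decapping, fell by 1.02 in W303-1a, and EDC3, another decapping activator, fell by 0.96 in eS7-WT and by 0.46 in eS7-4KR. DHH1, a helicase that binds CCR4-NOT, rose by 0.49 in eS7-4KR. The list's median change was -0.20, -0.43 and 0.01, close to all ORFs only in eS7-4KR (0.04, 0.04 and 0.00). In footprints 3 rose and 9 fell in W303-1a at 4 h, 3 rose and 9 fell in eS7-WT, and 4 rose and 3 fell in eS7-4KR. Of all ORFs tested, mRNA rose in 37.6%, 30.6% and 17.3% and footprints in 32%, 34.6% and 18.1%, with the decreases given above. Under library totals mRNA of 12 rose and none fell in W303-1a at 4 h, 6 rose and none fell in eS7-WT, and 4 rose and none fell in eS7-4KR, and footprints of 9, 8 and 4 rose and none fell. The list's median mRNA change was then above 0 in all 3 strains (0.52, 0.19 and 0.17), and 1, 2 and 0 of its called mRNA changes and 6, 7 and 0 of its called footprint changes took the opposite sign.

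Among 7 genes of the other deadenylase and of 3'-to-5' decay, mRNA of 1 rose and of 4 fell in W303-1a at 4 h, and 2 fell in each eS7 strain. PAB1, the poly(A)-binding protein, fell by 1.34 in W303-1a and by 1.29 in eS7-WT. SKI8, SKI2 and SKI3 of the Ski complex, which feeds mRNA to the exosome, fell in W303-1a by 0.82, 0.74 and 0.55, SKI8 fell by 0.57 in eS7-WT, and SKI8 and SKI2 fell by 0.41 and 0.35 in eS7-4KR. In footprints 1 rose and 4 fell in W303-1a at 4 h, 1 rose and 3 fell in eS7-WT, and 2 fell in eS7-4KR. The median mRNA change was -0.55, -0.18 and -0.24, and 0.16, 0.44 and -0.08 under library totals. There mRNA of 3 rose and 1 fell in W303-1a, 1 rose and 1 fell in eS7-WT and none was called in eS7-4KR. SKI3 mRNA in W303-1a (0.16) and SKI8 mRNA in eS7-WT (0.05) took the opposite sign. Footprints under library totals rose for 3 and fell for 1 in W303-1a and in eS7-WT, and fell for 1 in eS7-4KR. SKI2, SKI3 and SKI8 footprints in W303-1a (0.164, 0.295 and 0.036) and SKI2 footprints in eS7-WT (0.376) took the opposite sign.

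Among 12 proteins that recruit CCR4-NOT or associate with it, mRNA of 4 rose and of 3 fell in W303-1a at 4 h, of 4 rose and 2 fell in eS7-WT, and of 2 rose and none fell in eS7-4KR. TIS11 (also Cth2), a zinc-finger protein that brings mRNAs of iron-using proteins to decay, rose by 2.58, 3.45 and 0.80. MPT5 (also Puf5), a PUF-family RNA-binding protein, rose by 1.14, 1.45 and 0.66. VTS1, a SAM-domain RNA-binding protein, fell by 2.49 and 1.98 in W303-1a and eS7-WT, and PUF4, another PUF protein, by 1.77 and 1.27. In footprints 4 rose and 3 fell in W303-1a at 4 h, 5 rose and 3 fell in eS7-WT, and 2 rose and 2 fell in eS7-4KR. The median mRNA change of the list was 0.10, 0.12 and 0.00, and under library totals mRNA of 9 rose and 2 fell, 6 rose and 1 fell, and 2 rose and none fell. None of its called mRNA changes took the opposite sign in these 3 comparisons. CAF4 footprints, called at -0.775 in W303-1a and -0.560 in eS7-WT, did take it (0.173 and 0.258).

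Between the eS7 strains, mRNA of 21% of all ORFs was higher in eS7-4KR at 0 h and of 21.3% lower, and of 27.1% and 22.6% at 4 h. At 0 h, mRNA of 6 of the 18 decapping genes was higher in eS7-4KR and of 6 lower, with DCS2 (2.52), EDC1 (1.63), EDC2 (1.29) and LSM5 (-1.11) differing most. At 4 h, 2 were higher, with EDC1 at 2.12 and EDC3 at 0.99, and 2 lower, with LSM7 and PAT1 at -0.45. Of the 7 genes of the second list, 2 were higher and 1 lower at 0 h, and 1 was higher and 1 lower at 4 h. SKI3 was higher at both times (0.79 and 1.03 in mRNA, 1.51 and 2.12 in footprints). Of the 12 associated proteins, 7 were higher and 1 lower at 0 h, and 5 were higher and 2 lower at 4 h. PUF3, which targets mRNAs of mitochondrial proteins to CCR4-NOT, was 1.32 and 1.19 higher in mRNA. TIS11 was 1.58 higher at 0 h and 1.07 lower at 4 h. Under library totals the counts in the order of the 3 lists were 4 higher and 3 lower, 1 and 1, and 4 and 0 at 0 h, and 1 higher and 8 lower, 0 and 2, and 1 and 3 at 4 h. PUF4 was the one gene of the 3 lists called with a lower TE in eS7-4KR at both times (-1.70 and -1.47). Under library totals no TE change of its list passed the threshold at either time. With TMM scaling, TE was called higher for 1 decapping gene at 0 h and for 1 gene of the second list at 4 h.

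MOT2, the gene of Not4, was the subunit that differed most between the eS7 strains. Its footprints were 2.01 and 2.10 higher in eS7-4KR at 0 and 4 h (adjusted p 1.93e-11 and 9.66e-12) and its mRNA 1.23 higher at both times, so that its mean footprint level was 523.8 against 123.7 CPM per 1000 codons at 0 h, 5.08 and 0.832 times the median of the 8 members described here. Under library totals these differences were 2.57 and 1.98 in footprints and 1.25 and 0.78 in mRNA. The limit from the read lengths kept holds for MOT2 footprints too. The TE difference of MOT2 passed the threshold at 4 h (0.875) and not at 0 h (0.779). With Tm its mRNA rose in W303-1a by 0.50 at 2 h and 0.43 at 4 h, and its footprints in eS7-4KR by 0.48. Its other changes with Tm did not pass.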

How the data were processed

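Each deposited file gave, for one library, a whole-number read count for 6696 ORFs beside a codon number, which is not a measurement and served only to scale levels by length. The authors made the counts per ORF by mapping reads to the yeast transcriptome, removing duplicates by random barcodes, keeping footprint lengths that differed between the eS7 strains and between the eS7-WT times, and assigning A sites. The submitters' processing notes list CASAVA 1.8, Bowtie2 2.0.6 and TopHat2 2.0.7, with no role, and the sacCer3 build. Gene names came from RefSeq (assembly R64), which named 6008 of the 6696 ORFs.

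Counts were tested with edgeR 4.0.16 (R 4.3.3, glmQLFit in its legacy mode and glmQLFTest), with TMM factors set within each assay, among ORFs averaging 10 or more counts per library in each assay. The W303-1a fit held 10 libraries and 5392 ORFs, the eS7 fit 15 libraries and 5558 ORFs, and the comparison of eS7-WT with W303-1a all 25 libraries and 5526 ORFs. All 8 members passed this filter in each fit. The TE change was the footprint change minus the mRNA change in the same model. Adjusted p-values are Benjamini-Hochberg values over all ORFs tested, with 0.01 as the threshold. Where a group had 1 library, its spread was taken from the other groups. In the W303-1a fit only the untreated groups had 2 libraries, so no Tm-treated group added to the spread. A level is the TMM-scaled count per 1000000 (CPM) divided by the ORF's codons, times 1000. The mRNA files count 10 codons fewer per ORF than the footprint files. The code was tested on simulated data.

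Alternatives were RLE factors, library totals, DESeq2 1.42.0, no filter, edgeR's newer quasi-likelihood mode, a threshold of 0.05, leaving out each replicate, pooling all libraries, and replicate blocks. Same-numbered eS7 footprint libraries deviated together (r 0.465 to 0.638 over 5388 ORFs). The eS7-4KR 0 h mRNA libraries did not do so with either 4 h group (r 0.030 and 0.004). Between the 4 h mRNA groups of the eS7 strains r was -0.345, so libraries with opposite numbers deviated together there. With 2 replicates the numbers were not taken as pairs.

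The members and gene lists were chosen with earlier results of these data known. The naming rule was to give all 8 members in every group, statistics for each change past the threshold and ranges for the rest, and to name up to the 4 largest changes past the threshold in a list. TE differences with an unadjusted p below 0.05, the ratios between members, and the correlations shown were named after their values were seen. Sequences, promoters and reads shared between ORFs were not analysed here.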

Additional observations from a re-analysis of the deposited data

Results flagged for a closer look

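The change of CAF40 mRNA with Tm differed between eS7-4KR and eS7-WT by a test of the difference itself, at 0.58 on the log2 scale (adjusted p 0.007, edgeR) relative to the typical gene, and at 0.13 (adjusted p 0.789) under library totals. With TMM scaling CAF40 mRNA fell in eS7-WT and was within the spread of its libraries in eS7-4KR. The strains already differed at 0 h, where eS7-WT has 1 mRNA library, and its part in the difference was not tested. No group had the 4 libraries needed to look for a library that stands apart.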

How the results depend on the processing

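Of the 41 mRNA and footprint changes of members past the threshold, 19 stayed past it under every setting tried other than library totals, 21 with each library left out in turn, 37 with DESeq2 and 4 with library totals. Those 19 included CDC39 and NOT3 at 2 and 4 h in W303-1a and at 4 h in eS7-WT in both assays. No sign changed under a setting other than library totals. Library totals moved the median change of all ORFs by up to 0.95, RLE factors and DESeq2 by at most 0.05. With library totals the opposite sign was found for CAF40 (0.37) and CAF130 (0.32) mRNA and NOT3 (0.12) and POP2 (0.38) footprints in W303-1a at 4 h. In eS7-WT with Tm it was found for CAF40 mRNA (0.092) and for CDC39 (0.038), CDC36 (0.29), POP2 (0.47) and CAF40 (0.38) footprints. Between the eS7 strains at 0 h it was found for NOT3 (0.14) and CAF40 (0.059) footprints and NOT3 TE (0.16). Changes there are on the scale of total reads.

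The number of calls moved as follows, and the cause was not tested except where a setting changes the threshold itself. Library totals mostly replaced calls. The 7 mRNA calls in the W303-1a course became 9, of which 1 was kept and 8 were new increases, and its 6 footprint calls became 9, all new increases. Of 6 mRNA calls with Tm in the eS7 strains 0 were kept, and the 6 footprint calls became 3, all new increases. Between the eS7 strains 5 mRNA calls became 3, of which 1 was kept, and 8 footprint calls became 5, of which 2 were kept. Of the 3 mRNA calls between eS7-WT and W303-1a 0 were kept.

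Of the 7 mRNA calls in the W303-1a course, 4 were left with no filter and 4 with DESeq2, and a threshold of 0.05 gave 14. With 1 library left out, the calls with Tm in the eS7 strains numbered 3 to 6 in mRNA and 3 to 6 in footprints, and the mRNA calls between the eS7 strains 2 to 6. For the latter the newer quasi-likelihood mode, DESeq2 and a threshold of 0.05 gave 8 each. The 3 mRNA calls between eS7-WT and W303-1a were 0 with RLE factors, no filter or the 0 h libraries alone, and 0 to 3 with 1 library left out. TE had no call in the main analysis. Library totals gave 1 in the W303-1a course. Between the eS7 strains DESeq2 gave 1, a threshold of 0.05 gave 2 and leaving out 1 library 0 to 1. Between eS7-WT and W303-1a DESeq2 gave 2 and a threshold of 0.05 gave 1.

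With the replicate block set by number separately in the assays, 8 mRNA and 3 TE calls were found between the eS7 strains, and with a block by number over both assays or by culture 2 TE calls each. The first of these also called the footprint difference of the Tm changes for CDC39 (0.52, adjusted p 7.92e-05), CDC36 (0.49, adjusted p 0.00418) and NOT3 (0.37, adjusted p 0.0088), and the TE difference at 4 h for CCR4 (adjusted p 0.00012) and CDC36 (adjusted p 0.00212) and at 0 h for CDC39 (-0.44, adjusted p 0.00771). The block over both assays called the footprint difference for CDC39 and CDC36 alone. The crossed pairing, added after the data were seen, gave 8 mRNA and 3 TE calls. The number of calls stayed within 1.5 times of the main one in the other results with a block.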
